A study of Mus musculus with 6 samples.

Results

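The genes described here carry the beta-adrenergic and cAMP signal of the fat cell. Members were taken by symbol, 9 in all: the receptors *Adrb1*, *Adrb3* and *Adra2a*, the stimulatory G protein gene *Gnas*, the adenylyl cyclase *Adcy3*, the protein kinase A subunits *Prkaca* and *Prkar2b*, and the phosphodiesterases *Pde3b* and *Pde4d*. All 9 had a row among the 55491 rows of the count table and all 9 were among the 32664 genes tested. Gene expression was measured by bulk RNA-seq of inguinal white adipose tissue (IWAT), the subcutaneous fat pad of the groin, with 1 library from each of 6 mice.

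The comparison asked which transcripts differ when 1 allele of *Ebf2*, which encodes a transcription factor of brown and beige adipocytes, carries a stop codon. The control group was 3 *Ebf2*+/+ mice. The other group was 3 *Ebf2* E165X/+ mice, heterozygous for a knock-in nonsense allele that is present in every cell of the body. All were males of 4 weeks on regular chow and labelled C57BL/6J, and none received a drug, a hormone or a cold challenge. The allele was made by CRISPR/Cas9 in eggs of a B6SJLF1 hybrid cross and the founders were bred to C57BL/6J. The number of founder lines is not given in the sources used here. Total counts per library ranged from 106820505 to 135039488, and the library totals gave *P* = 0.9 between genotypes in a 2-sided exact permutation test.

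Noradrenaline from sympathetic nerves binds beta-adrenergic receptors on adipocytes, which act through the stimulatory G protein on adenylyl cyclase. The cyclase makes cAMP, which releases the catalytic subunits of protein kinase A from their regulatory subunits, and the kinase then phosphorylates proteins of the lipid droplet and switches on lipolysis and, in brown and beige fat, heat production. Alpha2-adrenergic receptors act against this through an inhibitory G protein, and phosphodiesterases end the signal by breaking cAMP down.

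*Ebf2* itself had 38.3, 41.3 and 37.2 CPM (counts scaled to a common library size with TMM factors) in the *Ebf2*+/+ libraries, and 22.8, 22.9 and 21.1 CPM in the *Ebf2* E165X/+ libraries. Every *Ebf2* E165X/+ library lay below every *Ebf2*+/+ library. The row sums reads of both alleles, so it does not show the stop codon itself. Its log2 fold change was -0.81 (SE 0.076), and the adjusted *P* of edgeR's quasi-likelihood test with Benjamini-Hochberg adjustment was 0.0596. With DESeq2 the adjusted *P* was 1.2e-13, and it ranged from that value to 0.502 over the alternatives run.

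A gene was called changed at an edgeR adjusted *P* under 0.05 and a fold change above 1.5. None of the 9 members was called, against a background of 3 of the 32664 genes tested (0.00918%). DESeq2 and limma-voom also called 0 of the 9, where DESeq2 called 98 genes (0.61% of those it tested, or 1.18% at its adjusted *P* alone). The genes limma-voom called in all numbered within a factor of 1.5 of edgeR's 3. Its 0, like that of edgeR, thus says little about the members. At an unadjusted edgeR *P* under 0.05, 2 members passed, *Adrb1* and *Prkaca*, both lower in *Ebf2* E165X/+ tissue, where 4.77% of all genes passed (3.09% lower, 1.68% higher). The log2 fold change was below 0 for 8 of the 9 members, against 47.9% of all genes, and its median over the members was -0.22 against 0.01 over all genes. That median was -0.12 without library 3 of the *Ebf2* E165X/+ group and -0.13 without library 2 of the *Ebf2*+/+ group. With all libraries, the 8 markers of adipocytes had a median of -0.28, beside -0.22 for the members. The marker median was not taken with a library left out, so it cannot be set beside -0.12 or -0.13. Library 3 of the *Ebf2* E165X/+ group was also the lowest of all libraries in the mean log2 CPM of these markers, at 9.30. The members are not independent of each other, as several of them varied together across libraries. In bulk tissue, fewer cells of a type and less RNA per cell cannot be told apart.

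**Figure D1:**
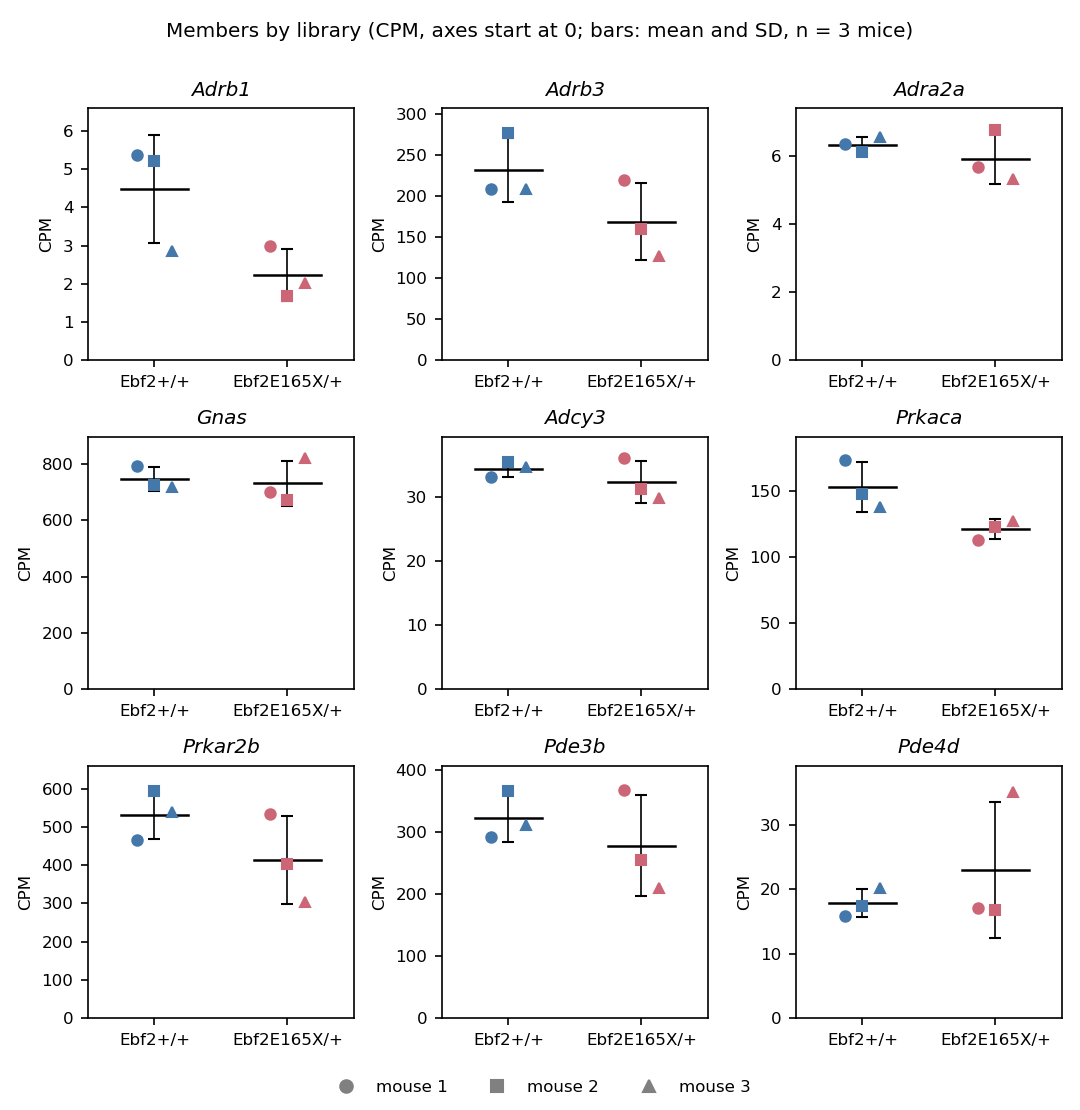
CPM of the 9 members in each of the 6 libraries, with points for single mice and bars for the mean and SD of 3 mice (each vertical axis starts at 0, and the labels name no pairs between mice of equal number). *Prkaca* is the panel in which the *Ebf2* E165X/+ points, 113 to 127 CPM, all lie below the *Ebf2*+/+ points, 138 to 174 CPM, and the other 8 panels overlap.

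Upstream sequence is shown for both members that passed the unadjusted threshold, so that the motifs named beside their values can be read, and for *Adora1*, which had the smallest *P* among the other genes of the pathway. Each is the 250 bases before a RefSeq transcript start on GRCm38.p6, written 5′ to 3′ on the strand of the gene. Capitals mark the letters of 2 searched motifs, the EBF core CCCNNGGG and the short site of the cAMP response element (CRE), TGACG or its reverse complement CGTCA.
Adrb1 upstream, chr19:56721867-56722116, plus strand: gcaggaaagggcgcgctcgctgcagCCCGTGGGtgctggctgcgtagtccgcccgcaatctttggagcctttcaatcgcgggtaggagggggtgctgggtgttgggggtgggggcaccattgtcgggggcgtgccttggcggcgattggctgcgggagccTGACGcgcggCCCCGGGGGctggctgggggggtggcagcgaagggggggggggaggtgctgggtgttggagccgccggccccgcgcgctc
Prkaca upstream, chr8:83972728-83972977, plus strand: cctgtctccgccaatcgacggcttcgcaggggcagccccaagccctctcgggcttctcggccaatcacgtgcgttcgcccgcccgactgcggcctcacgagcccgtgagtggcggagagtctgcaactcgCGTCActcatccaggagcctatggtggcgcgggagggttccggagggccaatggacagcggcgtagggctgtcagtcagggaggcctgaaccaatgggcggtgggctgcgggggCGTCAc
Adora1 upstream, chr1:134235458-134235707, minus strand: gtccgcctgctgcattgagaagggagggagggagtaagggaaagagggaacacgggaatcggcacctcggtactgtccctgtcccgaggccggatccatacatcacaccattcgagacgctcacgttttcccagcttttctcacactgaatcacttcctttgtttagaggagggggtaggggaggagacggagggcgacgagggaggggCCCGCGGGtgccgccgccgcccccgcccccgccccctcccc

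The *Adrb1* window held 3 matches to CCCNNGGG, of which the pair starting 80 and 79 bases before the transcript start overlap in 1 run of C and G, and 1 match to TGACG starting 90 bases before it. The *Prkaca* window held no EBF core and matched CGTCA at 120 and 6 bases before the start. The *Adora1* window held 1 EBF core, 41 bases before the start. The study gives its EBF motif as CCCWNGGG, with A or T at the fourth base, which the search did not require. The *Adora1* match and the overlapping pair of *Adrb1* have G or C there on both strands. The remaining *Adrb1* match, CCCGTGGG, has A there on the opposite strand. *Prkaca* and *Adora1* each have a second RefSeq start, and the 250 bases before it held neither motif in either gene. Searched on both strands, the EBF core occurred in 11.8% of 32851 RefSeq upstream windows of the same length and the short CRE site in 17.8%. The complete element TGACGTCA, which contains the short site, occurred in 1.55%. Among the 13 windows of the 7 members with an entry, 3 held the EBF core, 6 the short site and 0 the complete element. Of those 6 windows 3 belong to *Gnas*, and a pair of these overlap and hold the same site, so the windows are not independent. *Adrb3* and *Pde3b* were not in the sequence table. These are matches of letters, and binding was not measured in these libraries.

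Of the receptors, *Adrb3* encodes the beta3-adrenergic receptor, the main beta-receptor of rodent adipocytes (chr8:27225776-27250616, minus strand, GRCm38). It had 209, 277 and 209 CPM in the *Ebf2*+/+ libraries and 220, 161 and 127 CPM in the *Ebf2* E165X/+ libraries. The first *Ebf2* E165X/+ library lay above a pair of *Ebf2*+/+ libraries and the other two lay below all of them, so the groups overlapped. The mean was 232 ± 39.1 CPM (SD, n = 3) against 169 ± 47.3 (SD, n = 3). *Adrb3* thus had a log2 fold change of -0.45 (SE 0.21), with an unadjusted *P* of 0.0652 and an adjusted *P* of 0.783 in edgeR. The 95% interval of the *Ebf2* E165X/+ level ran from 52.0% to 103% of the *Ebf2*+/+ level. Of the exon bases of *Adrb3*, 24.9% are shared with the antisense gene *Gm45470*, and the sources used here do not state whether counting used strand.

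*Adrb1* encodes the beta1-adrenergic receptor, which responds to noradrenaline in heart and fat (chr19:56722199-56733113, plus strand). It had 5.36, 5.22 and 2.86 CPM in the *Ebf2*+/+ libraries and 2.98, 1.69 and 2.02 CPM in the *Ebf2* E165X/+ libraries, from 211 to 644 counts. The groups overlapped by 1 library of each, since the third *Ebf2*+/+ mouse lay just below the first *Ebf2* E165X/+ mouse. At -1.01 (SE 0.31), its log2 fold change was the largest in size among the members. Its unadjusted edgeR *P* was 0.0127, its adjusted *P* 0.783 in edgeR and 0.0502 in DESeq2, with a range of 0.0502 to 0.941 over the alternatives run. The *Ebf2* E165X/+ level was 49.8% of the *Ebf2*+/+ level, with a 95% interval from 30.2% to 82.1%.

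*Adra2a* encodes the alpha2A-adrenergic receptor, which is coupled to the inhibitory G protein and restrains lipolysis (chr19:54044151-54048982, plus strand). It had 6.35, 6.13 and 6.55 CPM in the *Ebf2*+/+ libraries and 5.68, 6.78 and 5.33 CPM in the *Ebf2* E165X/+ libraries. The *Ebf2*+/+ libraries lay inside the spread of the *Ebf2* E165X/+ libraries. Its log2 fold change was -0.10 (SE 0.14, edgeR adjusted *P* = 0.859), and the 95% interval of the level ran from 74.6% to 117% of *Ebf2*+/+.

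The balance between receptors was read as log2 ratios within each library. *Adrb3* over *Adrb1* was 5.29, 5.73 and 6.19 for *Ebf2*+/+, against 6.21, 6.57 and 5.97 for *Ebf2* E165X/+, a difference of 0.51 (exact permutation *P* = 0.2, adjusted over 6 ratios *P* = 0.4). *Adrb3* over *Adra2a* differed by -0.37 (exact permutation *P* = 0.3, adjusted *P* = 0.45). In both ratios the groups overlapped. With 1 library left out, the first ranged from 0.29 (without the first *Ebf2*+/+ library) to 0.74 and the second from -0.61 to -0.21 (without the second *Ebf2*+/+ library). With 3 mice against 3, the smallest 2-sided *P* that this test can give is 0.1.

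*Gnas* encodes the alpha subunit of the stimulatory G protein and had the highest CPM of the members (chr2:174284320-174346744, plus strand). It had 794, 727 and 718 CPM in the *Ebf2*+/+ libraries and 702, 671 and 821 CPM in the *Ebf2* E165X/+ libraries. The third *Ebf2* E165X/+ library was the highest of all 6 and the second the lowest. The log2 fold change was -0.03 (SE 0.13, edgeR adjusted *P* = 0.965), with a 95% interval of the level from 79.5% to 121%, and its sign turned when any of 3 libraries was left out. *Gnas* is an imprinted locus with several promoters, and its row sums transcripts that encode different proteins. Of its exon bases, 13.1% are shared with *Gm20721* and 8.83% with the antisense *Nespas*, both on the opposite strand.

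*Adcy3* encodes an adenylyl cyclase of adipocytes and of the primary cilium (chr12:4133103-4213525, plus strand). It had 33.0, 35.3 and 34.6 CPM in the *Ebf2*+/+ libraries and 36.0, 31.1 and 29.7 CPM in the *Ebf2* E165X/+ libraries. The *Ebf2* E165X/+ mice held both the highest and the lowest value. The log2 fold change was -0.09 (SE 0.089, edgeR adjusted *P* = 0.783), and the interval of the level, 81.5% to 108.6% of *Ebf2*+/+, was the narrowest among the members. Its exons share 22.1% of their bases with *Cenpo* on the opposite strand.

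*Prkaca* encodes the main catalytic subunit of protein kinase A (chr8:83972993-83996443, plus strand). It had 174, 147 and 138 CPM in the *Ebf2*+/+ libraries and 113, 123 and 127 CPM in the *Ebf2* E165X/+ libraries. It was the 1 member of 9 (11.1%) whose groups did not overlap, where 10.8% of all genes tested did not overlap, 5.75% with the *Ebf2* E165X/+ libraries below and 5.09% with them above (13.4% where each library held 10 or more counts). *Prkaca* had a log2 fold change of -0.34 (SE 0.11), with an unadjusted edgeR *P* of 0.014 and an adjusted *P* of 0.783 in edgeR and 0.185 in DESeq2, the lowest of the alternatives run, which reached 0.941. The level was 79.0% of *Ebf2*+/+ with a 95% interval from 66.5% to 93.9%.

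*Prkar2b* encodes the regulatory subunit RII beta, the main one of white and brown adipocytes (chr12:31958476-32061296, minus strand). It had 464, 593 and 538 CPM in the *Ebf2*+/+ libraries and 534, 403 and 304 CPM in the *Ebf2* E165X/+ libraries. The first *Ebf2* E165X/+ mouse lay within the *Ebf2*+/+ spread and the other two lay below it. Its log2 fold change was -0.36 (SE 0.21, edgeR adjusted *P* = 0.783).

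Both kinase subunits were also set against another catalytic or regulatory subunit within each library. The log2 ratio of *Prkaca* to *Prkacb*, the second catalytic gene, was 0.45, 0.10 and 0.03 for *Ebf2*+/+, against -0.33, -0.17 and -0.11 for *Ebf2* E165X/+. These groups did not overlap, and the difference of -0.40 had the smallest *P* the design allows (exact permutation *P* = 0.1, adjusted *P* = 0.4). *Prkar2b* over *Prkar1a*, the regulatory gene expressed in most tissues, differed by -0.41 with overlap (exact permutation *P* = 0.2, adjusted *P* = 0.4), and by -0.16 without the third *Ebf2* E165X/+ library.

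*Pde3b* encodes the phosphodiesterase through which insulin lowers cAMP in adipocytes (chr7:114415281-114539251, plus strand). It had 292, 367 and 312 CPM in the *Ebf2*+/+ libraries and 369, 255 and 211 CPM in the *Ebf2* E165X/+ libraries. The highest and the lowest library both came from *Ebf2* E165X/+ mice. Its log2 fold change was -0.22 (SE 0.21, edgeR adjusted *P* = 0.783).

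*Pde4d* encodes a cAMP-specific phosphodiesterase that is widely expressed (chr13:108449948-109953461, plus strand). It had 15.9, 17.4 and 20.2 CPM in the *Ebf2*+/+ libraries and 17.1, 16.8 and 35.1 CPM in the *Ebf2* E165X/+ libraries. A single library, the third *Ebf2* E165X/+ mouse, was 1.74 times the next highest, and the other 5 lay close together. *Pde4d* had a log2 fold change of 0.37 (SE 0.28, edgeR adjusted *P* = 0.783) with that library and -0.07 (SE 0.12) without it. The log2 ratio of *Pde3b* to *Pde4d* differed by -0.54 with overlap (exact permutation *P* = 0.6, adjusted *P* = 0.7), and by -0.0063 without the third *Ebf2* E165X/+ library.

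**Figure D2:**
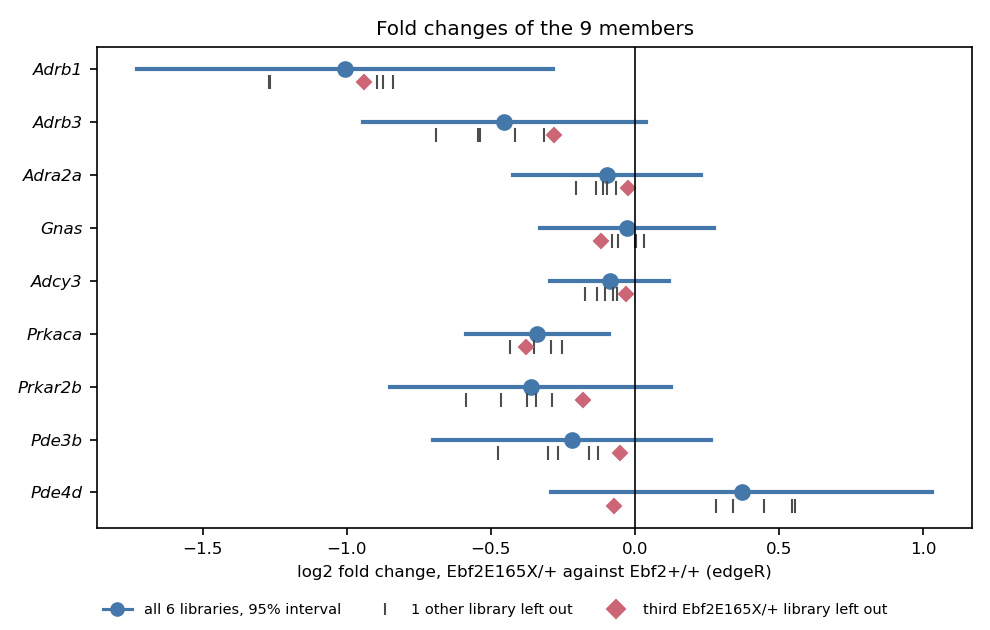
Log2 fold change of each member, *Ebf2* E165X/+ against *Ebf2*+/+, with its 95% interval from edgeR (circles and lines), and the value with each library left out (ticks, and diamonds for the third *Ebf2* E165X/+ library). The intervals of *Adrb1* and *Prkaca* lie below 0, and the diamond of *Pde4d*, at -0.07, lies on the other side of 0 from its circle.

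Levels of different genes can be compared only per length, here as CPM per kb of exon. On that scale *Prkar2b* was the highest member, with a level of 146 ± 17.6 (SD, n = 3) in *Ebf2*+/+ and 113 ± 31.6 (SD, n = 3) in *Ebf2* E165X/+ mice. *Adrb3*, *Gnas* and *Prkaca* came next at levels of 68.7 ± 11.6, 66.7 ± 3.72 and 61.4 ± 7.46 in *Ebf2*+/+ mice, and neighbours in this order did not differ beyond their spread. *Pde3b* followed at 35.5 ± 4.26 and *Adcy3* at 5.49 ± 0.195, each separated from its neighbours by more than the SD. *Pde4d*, *Adrb1* and *Adra2a* had levels of 1.48 ± 0.183, 1.32 ± 0.415 and 1.31 ± 0.0438, with overlapping spreads. In *Ebf2* E165X/+ mice *Gnas* stood at 65.4 ± 7.07, *Adrb3* at 50.1 ± 14.02 and *Prkaca* at 48.6 ± 3.04, and *Adrb1* was last at 0.66 ± 0.198. The label on the samples and the study's supplement name different library kits, and in a library of 3′ tags a count is not proportional to length. In plain CPM, *Gnas* led and *Prkar2b* was second.

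The tissue label was checked against markers of adipocytes and of other cells. The 8 adipocyte markers were detected in all libraries, led by *Lpl*, lipoprotein lipase, and their summed level was 17881, 18316 and 15755 CPM in the *Ebf2*+/+ and 16744, 14617 and 10611 CPM in the *Ebf2* E165X/+ libraries. All 8 had a log2 fold change below 0 with a median of -0.28, 2 did not overlap, and none passed at an unadjusted edgeR *P* under 0.05. The mean log2 CPM of these markers was 10.02, 10.03 and 9.85 in the *Ebf2*+/+ and 9.84, 9.77 and 9.30 in the *Ebf2* E165X/+ libraries. The genotypes differed by -0.33 (exact permutation *P* = 0.1, the smallest possible), and their nearest libraries stood at 9.85 and 9.84. Much of the difference came from the third *Ebf2* E165X/+ library, which lay well below the other libraries of its group. The 6 brown and beige markers summed to 150, 208 and 206 CPM in *Ebf2*+/+ and 31.2, 36.7 and 74.7 CPM in *Ebf2* E165X/+ mice. In the third *Ebf2* E165X/+ library 21.7 CPM of that sum was *Cox7a1* and 32.8 CPM *Cox8b*, which striated muscle also expresses. At an unadjusted edgeR *P* under 0.05, 4 of the 6 passed, all lower, and DESeq2 called 3. *Cidea*, a lipid droplet protein of thermogenic fat, led that list and was the 1 gene of it called by edgeR (log2 fold change -3.24, SE 0.20, adjusted *P* = 0.00462). *Ucp1*, the uncoupling protein of brown fat, had a log2 fold change of -5.83 (SE 0.55), with an adjusted *P* of 0.0596 in edgeR and 4.9e-18 in DESeq2. Of the 5 B cell markers all 5 lay above 0 (median log2 fold change 0.33) and 3 did not overlap. They summed to 323, 522 and 524 CPM in *Ebf2*+/+ and 538, 614 and 566 CPM in *Ebf2* E165X/+ mice. Much of that difference thus came from the first *Ebf2*+/+ library. In the endothelial and in the smooth muscle and pericyte list, 2 of 5 did not overlap, with *Ebf2* E165X/+ below, where 13.4% of genes at 10 or more counts throughout did not. Medians were 0.07 for adipocyte progenitors, 0.10 for macrophages, 0.12 for Schwann cells, 0.10 for smooth muscle and pericytes, -0.21 for endothelium and -0.27 for epithelium. No marker of the B cell, progenitor, macrophage, Schwann cell, smooth muscle and pericyte, endothelial or epithelial lists passed at an unadjusted edgeR *P* under 0.05.

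Skeletal muscle RNA was present in unequal amounts. The 8 muscle markers, led by the myosin gene *Myh4*, summed to 1615, 6688 and 2519 CPM in the *Ebf2*+/+ libraries and to 2757, 648 and 38143 CPM in the *Ebf2* E165X/+ libraries, with none at 0 in any library. The third *Ebf2* E165X/+ library thus held 3.81% of its CPM in these 8 genes and stood apart from the other 5. All 8 had a log2 fold change above 0 (median 1.94), and none passed at an unadjusted edgeR *P* under 0.05. The same library was the lowest of the 6 for 5 of the 9 members (*Adrb3*, *Adra2a*, *Adcy3*, *Prkar2b* and *Pde3b*) and the highest for *Gnas* and *Pde4d*.

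**Figure D3:**
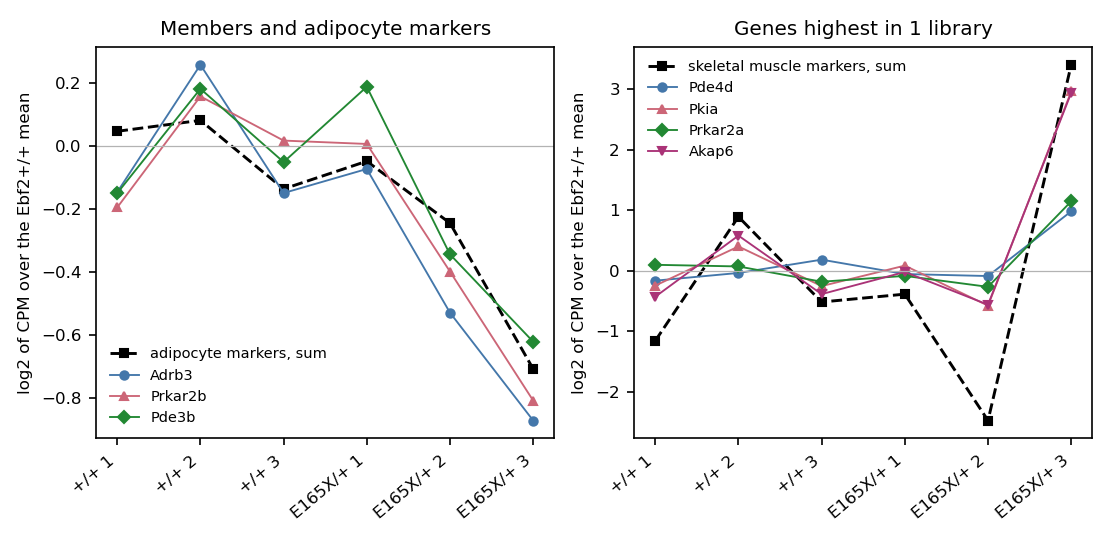
Log2 of CPM over the *Ebf2*+/+ mean in each library, on the left for *Adrb3*, *Prkar2b* and *Pde3b* with the summed adipocyte markers (dashed), on the right for *Pde4d*, *Pkia*, *Prkar2a* and *Akap6* with the summed muscle markers (dashed). The third *Ebf2* E165X/+ library is lowest in every line on the left and highest in every line on the right, and lines join libraries for reading only.

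With the third *Ebf2* E165X/+ library left out, the log2 fold changes were -0.94 for *Adrb1*, -0.28 for *Adrb3*, -0.03 for *Adra2a*, -0.12 for *Gnas* and -0.03 for *Adcy3*. They were -0.38 for *Prkaca*, -0.18 for *Prkar2b*, -0.05 for *Pde3b* and -0.07 for *Pde4d*. *Adrb1* and *Prkaca* kept sizes close to those with all 6 libraries, while the values of *Adrb3*, *Prkar2b*, *Pde3b*, *Adra2a* and *Adcy3* moved toward 0. Genes called by edgeR numbered 11 without that library, and 0 of them were members. The part of muscle RNA in the fold changes was not tested beyond this.

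Members were also expressed relative to the mean log2 CPM of the 8 adipocyte markers in the same library. On this log2 scale, *Adrb1* stood at -7.59, -7.64 and -8.32 in *Ebf2*+/+ and at -8.26, -9.00 and -8.27 in *Ebf2* E165X/+ mice, a difference of -0.66 (exact permutation *P* = 0.3, adjusted over the 9 members *P* = 0.72). The groups overlapped, and *Adrb1* kept the largest difference below 0 on this scale. *Prkaca* stood at -2.58, -2.83 and -2.74 in *Ebf2*+/+ and at -3.03, -2.83 and -2.31 in *Ebf2* E165X/+ mice, a difference of -0.0065 (exact permutation *P* = 0.9, adjusted *P* = 0.9). The third *Ebf2* E165X/+ library, the one rich in muscle RNA, was the highest of the 6. Without it the difference of *Prkaca* was -0.21 and both remaining *Ebf2* E165X/+ values lay below the *Ebf2*+/+ values, the nearest of them by less than the rounding (exact permutation *P* = 0.2). *Adrb3* differed by -0.15 (exact permutation *P* = 0.4) and *Prkar2b* by -0.06 (*P* = 0.9 in the same exact test). *Adra2a*, *Gnas*, *Adcy3*, *Pde3b* and *Pde4d* lay on the other side of 0, at 0.22, 0.29, 0.24, 0.08 and 0.61, and all adjusted *P* values of the exact test were 0.72 or above. Without the third *Ebf2* E165X/+ library those of *Adra2a*, *Gnas*, *Adcy3* and *Pde4d* were 0.13, 0.04, 0.12 and 0.09, and without the second *Ebf2*+/+ library that of *Adrb3* was -0.05. *Adrb1* stood at -0.41 without the second *Ebf2* E165X/+ library.

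Likeness to *Adrb3* was measured across libraries. Over the 6 libraries, the log2 CPM of *Adrb3* had a Pearson *r* of 0.967 with *Prkar2b*, 0.949 with *Pde3b* and 0.914 with *Adcy3*. Of the 8 adipocyte markers, it had an *r* of 0.967 with *Pparg*, the master regulator of adipocyte differentiation, of 0.959 with *Adipoq*, adiponectin, and of 0.957 with *Fabp4*, a fatty acid carrier. It was 0.865 with *Cidec*, 0.848 with *Lipe*, 0.814 with *Lpl* and 0.796 with *Plin1*, and -0.050 with *Lep*, leptin. With *Prkaca* it was 0.345, with *Gnas* -0.343 and with *Pde4d* -0.722. Among 10386 genes with a mean of at least 10 CPM, 31 had an *r* of 0.95 or more with *Adrb3*, led by *Znfx1* (0.988), *Pogk* (0.986), *Cd274* (0.986), *Rgs3* (0.985) and *Ptprm* (0.982). These are descriptions over 6 points that share library composition and the 2 genotypes.

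The other genes of the pathway were taken from a list of 114 symbols in 11 classes, of which 112 were in the table and tested. By edgeR 0 of the 112 were called. DESeq2 called 4, *Ptger3*, *Rgs2*, *Gnao1* and *Adra1a*, all lower in *Ebf2* E165X/+ tissue. Of all genes it called 0.61%, and 86 of those 98 calls were lower. At its adjusted *P* under 0.05 alone, 7 of the 112 passed, beside 1.18% of all genes, and 1 of these, *Slc18a2*, was higher. Limma-voom called 0, from a total within a factor of 1.5 of the 3 genes that edgeR called. At an unadjusted edgeR *P* under 0.05, 17 passed (15.2%), 11 lower and 6 higher, beside 4.77% of all genes tested and 6.06% of those in which each library held 10 or more counts. The groups did not overlap for 23 (20.5%), 12 below and 11 above, beside 13.4% of genes at 10 or more counts throughout. The median log2 fold change of the list was 0.03, close to the 0.01 of all genes, with 49 genes below 0 and 63 above.

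**Figure D4:**
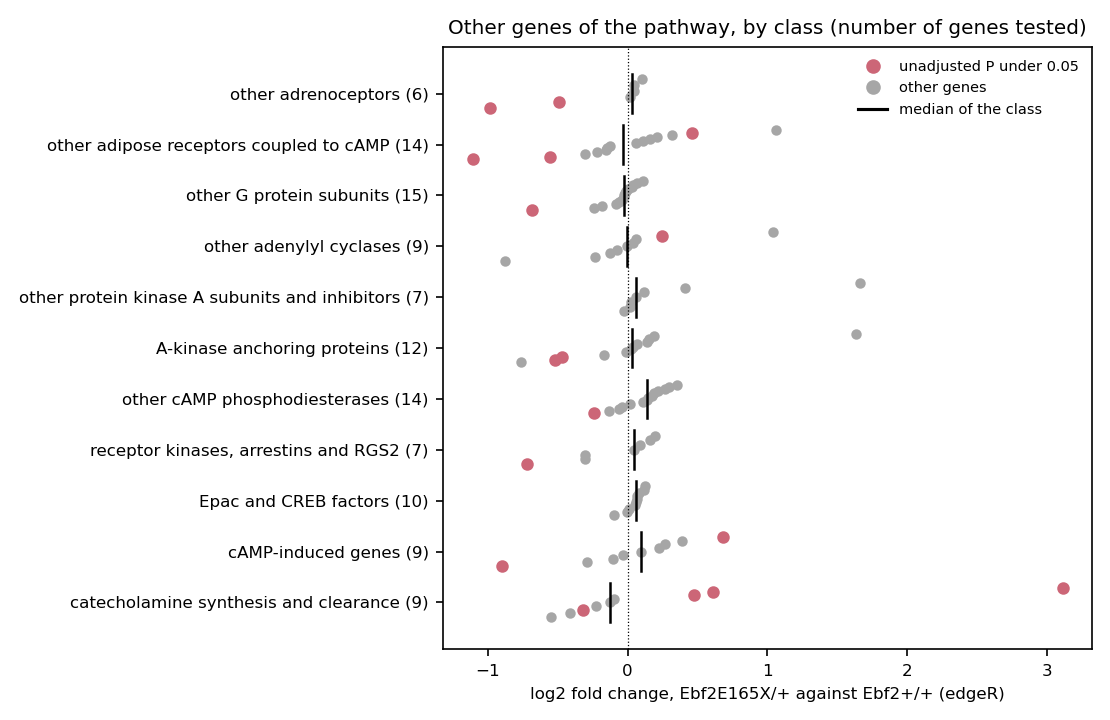
Log2 fold change of each of the 112 other pathway genes by class, *Ebf2* E165X/+ against *Ebf2*+/+, with genes at an unadjusted edgeR *P* under 0.05 in red, other genes in grey and a line at the median of each class. Class medians lie between -0.13 and 0.14, and the point farthest to the right, at 3.11, is *Th*, which has at most 1.06 CPM.

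Of the receptors in the list, *Adora1* had the smallest *P*, which was also the smallest of all 112 genes. It encodes the adenosine A1 receptor, which couples to the inhibitory G protein and restrains lipolysis. It had 72.6, 77.2 and 71.5 CPM in the *Ebf2*+/+ libraries and 55.1, 43.8 and 51.6 CPM in the *Ebf2* E165X/+ libraries, with no overlap and a log2 fold change of -0.56 (SE 0.096). The adjusted *P* was 0.377 in edgeR and 5.5e-04 in DESeq2, with a range of 5.5e-04 to 0.935 over the alternatives run, and its fold change was below the 1.5 set for a call. Its exons share 20.1% of their bases with *Mybph*, a muscle gene on the opposite strand.

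*Ptger3* encodes the prostaglandin E2 receptor EP3, also coupled to the inhibitory G protein. It had 72.9, 36.6 and 53.9 CPM in the *Ebf2*+/+ libraries and 22.1, 29.8 and 24.0 CPM in the *Ebf2* E165X/+ libraries. All *Ebf2* E165X/+ libraries lay below the *Ebf2*+/+ ones, which themselves spread widely. *Ptger3* had a log2 fold change of -1.11 (SE 0.24), with an adjusted *P* of 0.625 in edgeR and 4.9e-04 in DESeq2 (4.9e-04 to 0.941 over the alternatives).

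*Adra1a* encodes the alpha1A-adrenergic receptor, which signals through calcium rather than cAMP. It had 18.6, 22.4 and 22.0 CPM in the *Ebf2*+/+ libraries and 7.30, 15.1 and 9.41 CPM in the *Ebf2* E165X/+ libraries, with no overlap and a log2 fold change of -0.98 (SE 0.25). The adjusted *P* was 0.783 in edgeR and 0.00732 in DESeq2 (0.00732 to 0.908 over the alternatives). *Adra1a* lies 462.1 kb from *Ebf2* on chromosome 14 with 4 protein-coding genes between them, so it is close to the edited locus, and a difference in founder sequence near the allele and an effect of the allele cannot be told apart here. *Adra1d*, another receptor of this class, had 4.37, 5.46 and 4.95 CPM in *Ebf2*+/+ and 3.40, 4.27 and 2.87 CPM in *Ebf2* E165X/+ mice, without overlap.

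**Figure D5:**
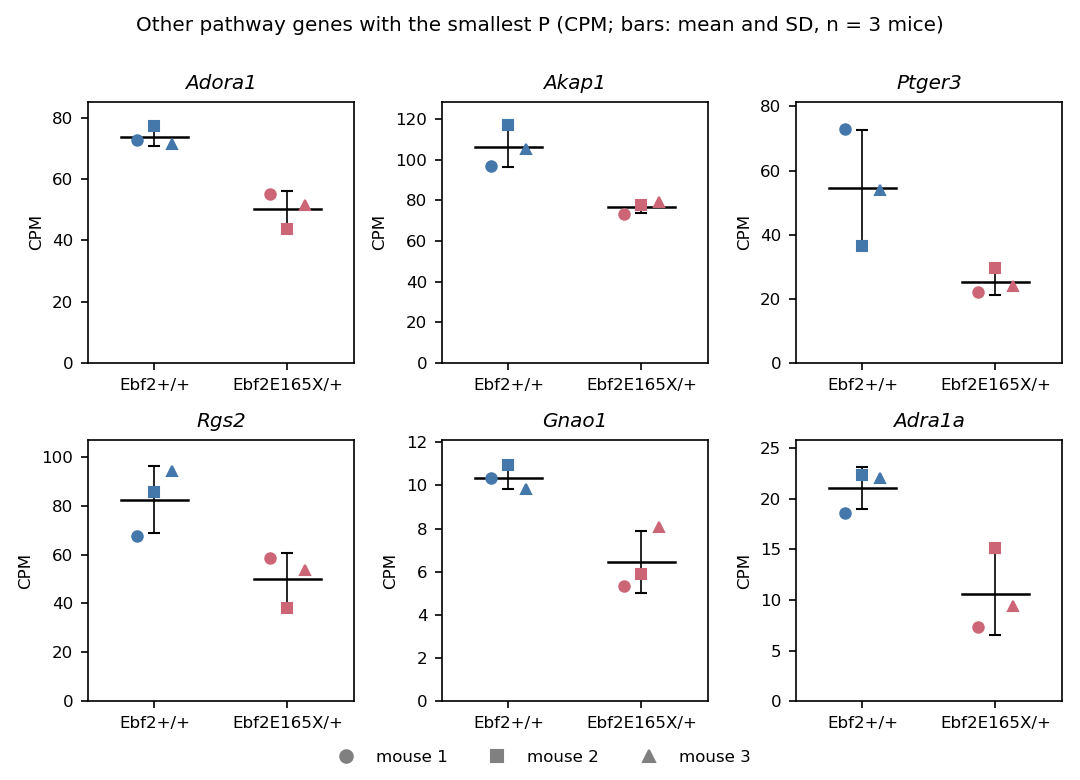
CPM of the 6 other pathway genes with the smallest *P* in each library, with points for single mice and bars for the mean and SD of 3 mice (each vertical axis starts at 0). In every panel the *Ebf2* E165X/+ points lie below the *Ebf2*+/+ points. The rule that chose these genes favours separated groups but neither direction.

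Among the signal transducers, *Gnao1*, an inhibitory G protein alpha subunit best known from neurons, had 10.3, 10.9 and 9.83 CPM in *Ebf2*+/+ and 5.33, 5.91 and 8.08 CPM in *Ebf2* E165X/+ mice (log2 fold change -0.69, SE 0.17). *Rgs2*, which speeds the switching off of G proteins, had 67.5, 85.6 and 94.4 CPM in *Ebf2*+/+ and 58.5, 38.1 and 53.6 CPM in *Ebf2* E165X/+ mice (log2 fold change -0.72, SE 0.18). Neither gene overlapped between genotypes. The adjusted *P* of both was 0.783 in edgeR, and in DESeq2 it was 0.0127 for *Gnao1* and 0.0165 for *Rgs2*.

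Anchoring proteins hold protein kinase A at defined places in the cell. *Akap1*, the anchor of the outer mitochondrial membrane, had 96.9, 117 and 105 CPM in *Ebf2*+/+ and 73.5, 77.9 and 79.0 CPM in *Ebf2* E165X/+ mice, without overlap. Its log2 fold change was -0.47 (SE 0.088), with an adjusted *P* of 0.454 in edgeR and 0.00222 in DESeq2. *Akap5*, an anchor at the plasma membrane, had 6.33, 4.68 and 4.49 CPM in *Ebf2*+/+ and 3.50, 3.84 and 3.47 CPM in *Ebf2* E165X/+ mice (log2 fold change -0.52, SE 0.18, adjusted *P* = 0.783 in edgeR and 0.139 in DESeq2). *Akap6*, an anchor of striated muscle, had 35.4 CPM in the third *Ebf2* E165X/+ library and at most 6.91 in the other 5.

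Of the cyclases and phosphodiesterases outside the members, *Adcy7* had 99.4, 98.3 and 116 CPM in *Ebf2*+/+ and 118, 130 and 124 CPM in *Ebf2* E165X/+ mice, the higher side without overlap (log2 fold change 0.24, SE 0.092, adjusted *P* = 0.783 in edgeR and 0.478 in DESeq2). *Pde8a*, a phosphodiesterase with high affinity for cAMP, had 45.7, 43.3 and 45.4 CPM in *Ebf2*+/+ and 41.7, 34.7 and 37.3 CPM in *Ebf2* E165X/+ mice (log2 fold change -0.24, SE 0.082, adjusted *P* = 0.783 in edgeR and 0.399 in DESeq2). Per kb, *Adcy6* was the highest of the other cyclases, with a level of 31.0 ± 0.707 in *Ebf2*+/+ and 29.4 ± 3.20 in *Ebf2* E165X/+ mice, above the levels of *Adcy3*. The log2 ratio of *Adcy3* to *Adcy6* differed by -0.01 (exact permutation *P* = 0.7, adjusted *P* = 0.7). *Pde2a* led the other phosphodiesterases per kb, with a level of 21.1 ± 1.05 in *Ebf2*+/+ and 20.2 ± 1.30 in *Ebf2* E165X/+ mice. Of its exon bases 64.3% are shared with *Gm45837* on the same strand, so its level and its rank are uncertain.

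Of the other protein kinase A subunits and inhibitors, 6 of 7 had a log2 fold change above 0, beside 52.1% of all genes tested. None passed at an unadjusted edgeR *P* under 0.05. For *Prkar1a*, *Pkib*, *Pkig* and *Prkar2a* the first and second *Ebf2* E165X/+ libraries lay below the *Ebf2*+/+ mean. Only the third, rich in muscle RNA, lay above it, so the count leans on that library. *Prkar1a* had the highest level per kb of this class, 75.5 ± 2.64 in *Ebf2*+/+ and 76.5 ± 4.05 in *Ebf2* E165X/+ mice. *Pkia*, an inhibitor of the kinase that is abundant in muscle, had 27.99, 43.8 and 27.8 CPM in *Ebf2*+/+ and 35.2, 22.2 and 259 CPM in *Ebf2* E165X/+ mice. *Prkar2a* had 65.2, 64.0 and 53.7 CPM in *Ebf2*+/+ and 57.4, 50.7 and 135 CPM in *Ebf2* E165X/+ mice. For both genes the third *Ebf2* E165X/+ library was alone in its height, as it was for the muscle markers, and the part of muscle RNA in these values was not tested.

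Of 9 genes that cAMP induces, 0 were called by edgeR, DESeq2 or limma-voom, beside 0.00918% of all genes in edgeR and 0.61% in DESeq2. At such shares a 0 of 9 says little. At an unadjusted edgeR *P* under 0.05, 2 passed (22.2%), 1 lower and 1 higher, beside 4.77% of all genes tested. *Dio2*, the deiodinase that raises thyroid hormone within thermogenic fat, had 4.13, 2.78 and 4.88 CPM in *Ebf2*+/+ and 1.73, 1.73 and 2.86 CPM in *Ebf2* E165X/+ mice. The groups overlapped by 1 library of each, and the log2 fold change was -0.90 (SE 0.29, adjusted *P* = 0.783 in edgeR and 0.0801 in DESeq2). *Per1*, a clock gene with a cAMP response element, had 27.8, 25.5 and 49.7 CPM in *Ebf2*+/+ and 51.9, 46.1 and 67.4 CPM in *Ebf2* E165X/+ mice, with overlap. *Ppargc1a*, the coactivator of mitochondrial genes, had levels per kb of 1.81 ± 0.319 and 1.69 ± 0.476. These mice were not stimulated, and the hour of tissue collection is not given in the sources used here.

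Genes of catecholamine synthesis and clearance completed the list. *Th*, tyrosine hydroxylase, which marks sympathetic nerves, had at most 0.147 CPM in 5 libraries and 1.06 CPM in the third *Ebf2* E165X/+ library, and *Dbh* had at most 0.038 CPM in any. The counts of *Th* were 1 to 17 in those 5 libraries and 136 in the third *Ebf2* E165X/+ library, so its place among the genes with an unadjusted *P* under 0.05 rests on few counts. Most RNA of sympathetic neurons lies in ganglia outside the fat pad. *Maob*, which oxidises monoamines, had 58.3, 60.6 and 58.7 CPM in *Ebf2*+/+ and 50.2, 53.0 and 39.0 CPM in *Ebf2* E165X/+ mice (log2 fold change -0.32, SE 0.11, adjusted *P* = 0.783 in edgeR and 0.362 in DESeq2, and -0.20 without the third *Ebf2* E165X/+ library). *Slc18a2*, the vesicular monoamine transporter, which mast cells also express, had 3.55, 3.26 and 3.51 CPM in *Ebf2*+/+ and 4.61, 4.64 and 5.11 CPM in *Ebf2* E165X/+ mice. Its log2 fold change was 0.48 (SE 0.14), with an adjusted *P* of 0.783 in edgeR and 0.0325 in DESeq2.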

How the data were processed

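RNA was extracted from IWAT of 6 mice, 1 library each. Per the submitters' processing notes, the tools were cutadapt 4.8, FastQC 0.11.8, STAR 2.7.8a, RSEM 1.3.3 and MultiQC 1.20 with build GRCm38, and the authors deposited RSEM expected counts per gene, not normalized. All 332946 values were whole numbers, so rounding changed none. The labels name a kit from NEB, the study's supplement a 3′ tag kit and ENSEMBL 109. Strand use is not given in the sources used here. No sample was left out of the main comparison.

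The 32664 genes whose count reached 1 in some library were fitted with edgeR 4.0.16 (TMM, quasi-likelihood F test, Benjamini-Hochberg adjustment over all of them, R 4.3.3). DESeq2 1.42.0 and limma 3.58.1 were alternatives. Per-library log2 values used a prior count of 2. Ratios and relative levels were compared by 2-sided exact permutation tests (scipy 1.17.1). The fits were also run on simulated counts with known fold changes, as a check of the code. No simulated library was made to stand apart, so the run does not measure error rates for these data. Of 55491 identifiers, 55141 were in GENCODE M21 on GRCm38, among them all 178 listed genes, which gave positions and exon lengths. Gene models of another release could differ. Upstream windows came from RefSeq, GRCm38.p6.

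Members and gene lists were chosen with earlier results of these data known. Pathway genes named with full statistics were the 12 with the smallest *P*, genes like *Adrb3* were the 5 with the highest *r*, and the highest per kb of some classes were added. *Adra1d*, *Per1*, *Th*, *Dbh*, *Ppargc1a*, *Pkia*, *Prkar2a*, *Akap6*, *Prkacb*, *Cidea*, *Ucp1*, *Cox7a1* and *Cox8b* were named after their values were seen. *P* values of edgeR set a difference between genotypes against the spread between these mice, estimated in part from other genes. Those of the exact permutation test rank the observed difference among the ways to relabel the same libraries.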

Additional observations from a re-analysis of the deposited data

How the results depend on the processing

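No member was called under any of 14 alternatives, and of 117 alternative fold changes of the members over 13 settings 113 kept their direction. The log2 fold change of *Gnas* turned to 0.0035 without the first *Ebf2*+/+ library, to 8.29e-05 without the first and to 0.029 without the second *Ebf2* E165X/+ library, for a range of -0.12 to 0.03, and that of *Pde4d* to -0.072 without the third, for a range of -0.072 to 0.55. Genes called numbered 3, and 98 or 92 with DESeq2 (with or without independent filtering), which called 4 pathway genes either way, against 0 by edgeR. The cause was not tested. With 1 library left out, genes called ranged from 1 (without the second *Ebf2*+/+ library) to 11 (without the third *Ebf2* E165X/+ library), and the log2 fold changes from -1.27 to -0.84 for *Adrb1*, -0.69 to -0.28 for *Adrb3*, -0.43 to -0.25 for *Prkaca*, -0.59 to -0.18 for *Prkar2b* and -0.48 to -0.05 for *Pde3b*. Relative to adipocyte markers, the differences ranged from -0.21 to 0.15 for *Prkaca*, -0.18 to 0.0063 for *Prkar2b* and -0.045 to 0.18 for *Pde3b*, and the *Adcy3* to *Adcy6* ratio from -0.057 to 0.042. The 169 alternative fold changes of *Ebf2* and of the 12 pathway genes, chosen after seeing the data, kept their direction. The labels name no pairs of mice. Deviations of libraries of the same number had an *r* of 0.15, -0.28 and -0.16 over 18905 genes. For libraries of different numbers *r* ran from -0.32 to 0.39, so this check cannot show whether mice were paired. With the replicate block edgeR called 2 genes, 0 of them members. With 3 mice a group, intervals of most members hold both no change and sizeable changes.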
